A study of Mus musculus with 10 samples.

Results

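A group of 8 marker genes of melanocytes and Schwann cells was followed in cultured mouse embryonic fibroblasts, Zbtb4 knock-out and wild type. Zbtb4 is a zinc finger protein. The genes were Sox10, Mitf, Dct, Tyr, Pmel, Erbb3, S100b and Kit, 8 of the 22180 genes measured, picked by name and each read from its only probe set. The arrays came from 5 samples of Zbtb4 knock-out fibroblasts and 5 samples of wild-type fibroblasts, all grown from dorsal skin of E13.5 embryos without head and organs. The labels describe the one genotype only as Zbtb4 knock-out and the other only as wild type. They do not name the strain, the deleted part of the gene, or whether each array came from an embryo of its own, so a p-value covers the spread among these samples and nothing wider. Values are the deposited log2 expression values of one-colour Affymetrix arrays, on which a difference of 1 is a doubling of signal.

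Melanocytes, the pigment cells of skin, and Schwann cells, the glia of peripheral nerves, both arise from the neural crest, a transient cell population at the edge of the neural tube. Migrating precursors carry the transcription factor Sox10. In the pigment lineage Sox10 switches on Mitf, which drives the melanin enzymes Tyr and Dct and the melanosome fibril protein Pmel, while the receptor tyrosine kinase Kit keeps melanoblasts alive and moving in the dermis. In the Schwann lineage the neuregulin receptor Erbb3 transmits survival signals from axons, and the calcium-binding protein S100b marks the maturing glia. Dorsal skin of this stage holds melanoblasts and growing nerves, so a fibroblast culture taken from it can carry such cells over. Zbtb4 binds methylated CpG sites, and the study asked which transcripts depend on it.

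The promoters are shown because Mitf and Sox10 are known to act on the pigment genes among them. RefSeq windows from 250 bases before to 50 bases after the transcription start, build GRCm38.p6, were found for 5 of the 8 genes, Mitf, Dct, Tyr, S100b and Kit, with 3 starts for Mitf and 2 for Kit. The Tyr and Dct windows are printed with the letters CATGTG or their reverse complement CACATG, the core of the M-box bound by Mitf, in capitals. The Kit window is printed with every CG in capitals, since CpG sites are what methylation acts on.
Tyr promoter, chr7:87493463-87493762, minus strand: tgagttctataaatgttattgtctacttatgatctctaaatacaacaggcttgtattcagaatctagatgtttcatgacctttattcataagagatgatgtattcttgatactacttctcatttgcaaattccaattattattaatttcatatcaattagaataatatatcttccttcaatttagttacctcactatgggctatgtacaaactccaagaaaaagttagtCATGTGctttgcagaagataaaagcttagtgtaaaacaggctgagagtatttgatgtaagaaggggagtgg
Dct promoter, chr14:118052197-118052496, minus strand: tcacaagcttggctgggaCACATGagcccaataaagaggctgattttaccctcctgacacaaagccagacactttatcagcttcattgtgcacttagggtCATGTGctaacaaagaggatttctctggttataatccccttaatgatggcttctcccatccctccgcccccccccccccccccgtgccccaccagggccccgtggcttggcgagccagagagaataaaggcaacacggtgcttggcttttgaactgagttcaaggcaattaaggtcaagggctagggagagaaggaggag
Kit promoter, chr5:75574737-75575036, plus strand: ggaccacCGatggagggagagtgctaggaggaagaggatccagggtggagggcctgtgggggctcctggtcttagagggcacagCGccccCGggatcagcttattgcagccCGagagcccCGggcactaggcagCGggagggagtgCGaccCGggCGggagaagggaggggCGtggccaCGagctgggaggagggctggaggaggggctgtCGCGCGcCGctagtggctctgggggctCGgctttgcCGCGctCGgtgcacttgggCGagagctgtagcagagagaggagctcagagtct
The Tyr window held 1 copy of the M-box letters, beginning 21 bases before the start. The Dct window held 2 copies, beginning 232 and 150 bases before the start. The windows of Mitf, S100b and Kit held none, and 14.2% of all 32851 windows in the table held at least 1. The palindrome CACGTG, another letter sequence that proteins of the Mitf type bind, was in none of the 8 windows of these genes and in 7.15% of all windows. The letters ACAAAG or ACAATG, which Sox proteins bind, were searched on both strands with overlaps allowed and occurred 3 times in the Dct window, and 28.6% of all windows held at least 1. The Tyr window had 0 CpG sites, as had the lowest 5.43% of all windows, against a median of 7. The Dct window had 5, the S100b window 3, the Mitf windows 22, 5 and 8, and the Kit windows, which overlap almost fully, 20 and 21. These matches describe the letters of the windows and are not evidence of binding.

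The signals of 7 of the 8 genes were low, Mitf being the exception. Zbtb4, the targeted gene, read 5.45 ± 0.27 in the knock-out, against 6.07 ± 0.11 in the wild type (SD over 5 arrays each), a log2 difference of -0.62 with no overlap between the groups (exact two-sided permutation p = 0.00794, the smallest that 5 against 5 arrays can give; limma adjusted p = 0.628). Whether its probes lie inside the deleted part is not stated. All 10 values of Sox10, Dct, Tyr, Pmel, Erbb3 and Kit lay below the median of their own array over all genes, which ran from 4.29 to 4.34. S100b lay below it on 9 arrays, and Mitf above it on all 10. Background was gauged from 1394 olfactory and vomeronasal receptor genes, which fibroblasts are not known to use and whose mean signals had a median of 2.17 and a 95th percentile of 3.94. Probes differ in affinity, so this places no gene above another. Of those receptor genes, 98.1% had a mean at or below that of Mitf, 94.5% had one at or below that of Sox10, 94.5% below that of S100b, 91.2% below that of Dct, 91.03% below that of Erbb3, 90.5% below that of Pmel, 89.5% below that of Kit and 64.8% below that of Tyr, ties included. Mitf alone was above their 95th percentile. The receptor genes were chosen for this after their values had been seen. The 12 fibroblast genes had means over the 10 arrays from 5.73 for the proteoglycan gene Lum to 12.1 for the filament gene Vim, and all 12 means lay above the median of every array. In bulk RNA, fewer cells of a type and less RNA per cell cannot be told apart.

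**Figure D1:**
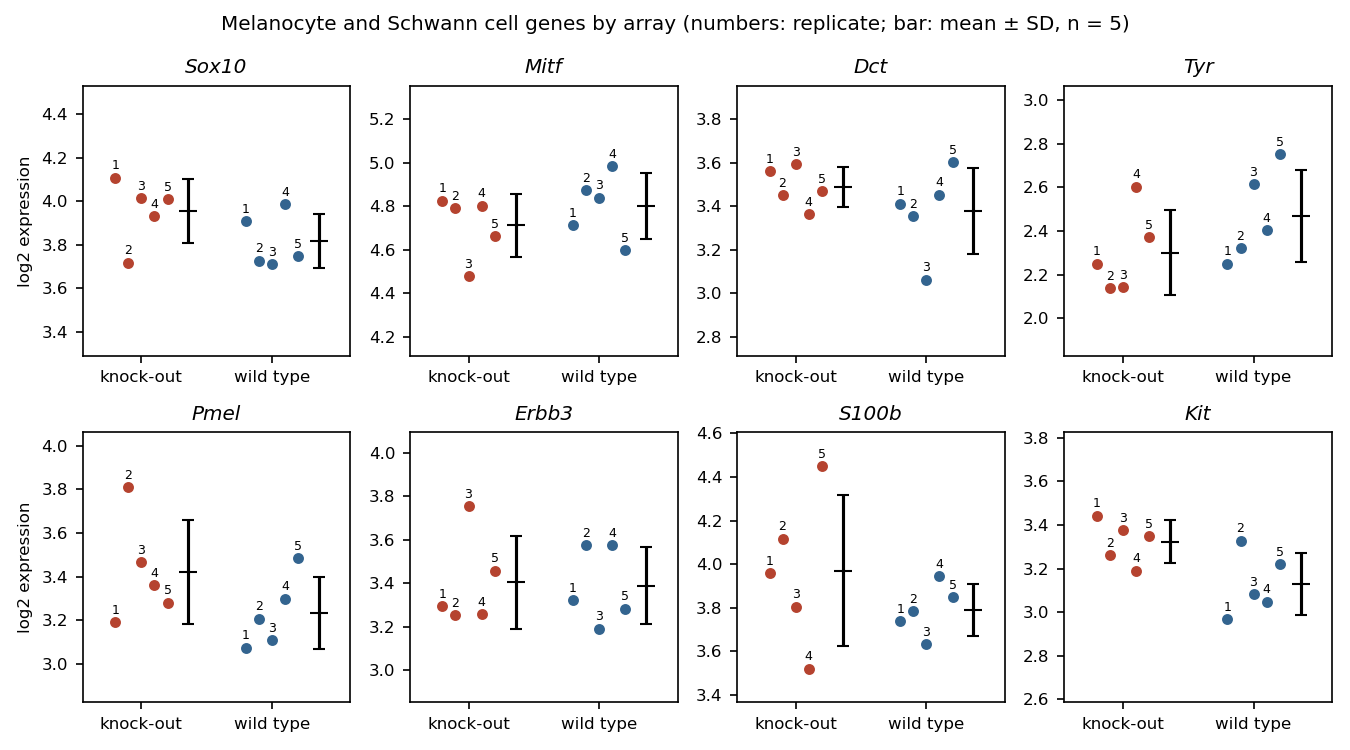
Log2 expression of the 8 genes on each array, knock-out left and wild type right in every panel. Points are arrays with their replicate numbers, bars are mean ± SD (n = 5), and all panels span the same length of the log2 axis. The groups overlap for every gene, and knock-out array 5 is the highest of all for S100b, at 4.45.

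Sox10, the crest transcription factor at the head of both lineages, read 4.11, 3.72, 4.01, 3.93 and 4.01 on knock-out arrays 1 to 5, and 3.91, 3.73, 3.71, 3.99 and 3.75 on wild-type arrays 1 to 5. Of the knock-out arrays, 3 lay above all wild-type arrays, and knock-out array 2 lay among the lowest of them. The knock-out mean was 3.96 ± 0.15, against a wild-type mean of 3.82 ± 0.12 (SD over 5 arrays each), a difference of 0.14 with a standard error of 0.091 (limma adjusted p = 0.842; exact permutation p = 0.127). The 95% interval ran from -0.056 to 0.34, so it includes no difference and reaches 1.26-fold higher in the knock-out.

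Mitf, the master regulator of the pigment lineage, read 4.82, 4.79, 4.48, 4.80 and 4.66 on the knock-out arrays, and 4.71, 4.87, 4.84, 4.98 and 4.60 on the wild-type arrays. In all, 3 wild-type arrays lay above all knock-out arrays, and knock-out array 3 was the lowest of the 10. Knock-out minus wild type was -0.089, standard error 0.095 (limma adjusted p = 0.899; exact permutation p = 0.349). Leaving out knock-out array 3 gave -0.031, and leaving out wild-type array 5 gave -0.14. Mitf has several promoters, of which a separate one serves melanocytes, and which of their transcripts the probe set reads is not stated. Macrophages also use Mitf, and their 14 markers had a mean deviation from -0.54 to 0.83 over the knock-out arrays and from -0.29 to 0.16 over the wild-type arrays. The highest macrophage value was on knock-out array 3, the array with the lowest Mitf. Wild-type array 4, the array with the highest Mitf, had the highest macrophage value of the wild-type arrays, 0.16. The part of these cells in the Mitf signal was not tested.

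The close relatives of both factors were read beside them. Sox8, which shares the DNA-binding domain of Sox10, was at 3.95, 4.17, 4.42, 4.31 and 4.16 on the knock-out arrays, and at 3.83, 4.18, 3.48, 3.88 and 3.81 on the wild-type arrays. It had a difference of 0.36 with a standard error of 0.12 that did not pass (limma adjusted p = 0.821; exact permutation p = 0.0317). Sox9, the third member of that family and a factor of cartilage as well as crest, averaged 6.75 ± 0.16 in the knock-out, against 6.69 ± 0.15 in the wild type (SD over 5 arrays each). Of these 5 relatives, 3 had a higher and 2 a lower mean in the knock-out, and 0 passed in limma. Among the relatives of Mitf, Tfe3 differed by -0.051, Tfeb by 0.13 and Tfec by -0.059, with limma adjusted p-values of 0.934, 0.842 and 0.977. Tfec ranged from 2.48 to 3.63 over the knock-out arrays and from 2.56 to 3.44 over the wild-type arrays.

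Dct, the dopachrome tautomerase that acts late in eumelanin synthesis and the usual early marker of melanoblasts, read 3.56, 3.45, 3.59, 3.36 and 3.47 on the knock-out arrays, and 3.41, 3.36, 3.06, 3.45 and 3.60 on the wild-type arrays. The knock-out values lay inside the wild-type range. The estimated difference was 0.11, its standard error 0.098 (limma adjusted p = 0.879; exact permutation p = 0.310), and it came to 0.032 without wild-type array 3, the lowest of the 10, and to 0.17 without wild-type array 5, the highest.

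Tyr, the rate-limiting enzyme of melanin synthesis, read 2.25, 2.14, 2.14, 2.60 and 2.37 on the knock-out arrays, and 2.25, 2.32, 2.61, 2.40 and 2.75 on the wild-type arrays. Wild-type arrays 3 and 5 and knock-out array 4 were the highest. The groups differed by -0.17, standard error 0.12 (limma adjusted p = 0.854; exact permutation p = 0.214), and -0.097 without wild-type array 5. Tyr and Dct both carry M-box letters in the windows printed above. Their differences, -0.17 and 0.11, had opposite signs, but neither passed in limma, so both signs are uncertain. The Tyr signal was also low, with a mean of 2.39 over all arrays, against a median of 2.17 for the olfactory and vomeronasal receptor genes. The part of Mitf in these differences was not tested.

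Pmel, which builds the fibrils on which melanin is laid down, read 3.19, 3.81, 3.47, 3.36 and 3.28 on the knock-out arrays, and 3.07, 3.21, 3.11, 3.30 and 3.48 on the wild-type arrays. Only knock-out array 2 lay above all wild-type arrays. Knock-out minus wild type was 0.19, standard error 0.12 (limma adjusted p = 0.842; exact permutation p = 0.206), and it came to 0.090 without that array.

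Erbb3, the neuregulin receptor of the Schwann lineage, read 3.30, 3.25, 3.75, 3.26 and 3.46 on the knock-out arrays, and 3.32, 3.58, 3.19, 3.58 and 3.28 on the wild-type arrays. Knock-out array 3 was the highest and the other knock-out arrays lay within the wild-type range. The difference was 0.014 (standard error 0.11), its 95% interval spanned -0.23 to 0.26, and it had the highest adjusted p of the 8 genes (limma, 0.989). Its sign was not stable, with -0.022 under quantile normalization, -0.0035 with each array centred on its median and -0.074 without knock-out array 3.

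Kit, the receptor of stem cell factor, read 3.44, 3.26, 3.38, 3.19 and 3.35 on the knock-out arrays, and 2.97, 3.33, 3.08, 3.05 and 3.22 on the wild-type arrays. All knock-out arrays lay above the wild-type median of 3.08, and 3 of them above all wild-type arrays. The knock-out mean was 3.32 ± 0.10, against a wild-type mean of 3.13 ± 0.14 (SD over 5 arrays each), a difference of 0.20, or 1.15-fold, with a standard error of 0.086. Of the 8 genes only Kit had a 95% interval that left out 0, from 0.0093 to 0.38, and the exclusion of 0 did not last. The difference itself kept its sign in all 17 alternatives, at 0.155 to 0.246 with single arrays left out and 0.157 to 0.198 otherwise. Averaged probe sets, eBayes with trend and robust, and the replicate block cannot move this difference, so the sign there was fixed in advance. The unadjusted limma p was 0.05 or more in 10 of 17 alternatives, among them quantile normalization (0.0801), the replicate block (0.0700) and 6 of the 10 arrays left out in turn, with a highest value of 0.107. Its exact permutation p was 0.0476 without adjustment, and its limma adjusted p over all genes was 0.830, so Kit did not pass. Mast cells, which use Kit too, were looked for with 10 measured markers, of which 7 had a higher and 3 a lower mean in the knock-out and 0 passed. Their means over the 10 arrays ran from 1.89 for the carboxypeptidase gene Cpa3 to 5.81 for the transcription factor gene Gata2. Of these means, 7 lay above the median of the olfactory and vomeronasal receptor genes and 3 below it. Only the mean of Gata2 lay above the 95th percentile of those receptor genes, 3.94. The part of mast cells in the Kit signal was not tested. The mast cell score, the mean deviation of the 10 markers, ran from -0.052 to 0.062 over the knock-out arrays and from -0.075 to 0.11 over the wild-type arrays.

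The signals that feed these receptors were measured as well. Of 10 ligands and receptors of melanoblasts and Schwann cell precursors, 4 had a higher and 6 a lower mean in the knock-out. Their median difference was -0.14, against 0.0020 over all genes, and 0 passed in limma. Kitl, the ligand of Kit, ranged from 3.66 to 5.23 over the knock-out arrays and from 4.14 to 4.92 over the wild-type arrays, a difference of -0.15 (limma adjusted p = 0.940). The neuregulin gene Nrg1, whose product Erbb3 binds, differed by -0.14, the endothelin gene Edn3 by 0.022 and Hgf, the ligand of Met, by -0.17, with limma adjusted p-values of 0.857, 0.986 and 0.841. Groups did not overlap for 2 of the 10, where 0.987% of all genes showed no overlap. One was Ngfr, the low-affinity neurotrophin receptor that marks crest cells, at 3.71 to 3.91 in the knock-out, against 3.97 to 4.45 in the wild type. Its difference was -0.35 with a standard error of 0.097 (limma adjusted p = 0.804). The other was Erbb2, the kinase partner of Erbb3, at 7.18, 7.17, 6.77, 7.10 and 6.90 in the knock-out, against 7.30, 7.21, 7.22, 7.31 and 7.31 in the wild type. Its difference was -0.25 with a standard error of 0.090 (limma adjusted p = 0.821). Both reached the smallest possible exact permutation p of 0.00794 and neither passed over all genes. Ngfr and Erbb2 both lie on chromosome 11, the chromosome of the targeted gene Zbtb4. So does Egfr of the same list, with a difference of 0.017. The part of a shared chromosome in these differences was not tested. Met, the receptor of Hgf, differed by -0.35, Ednrb, the receptor of Edn3, by 0.025, Egfr by 0.017 and Erbb4 by 0.20, with limma adjusted p-values of 0.821, 0.989, 0.990 and 0.839.

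**Figure D2:**
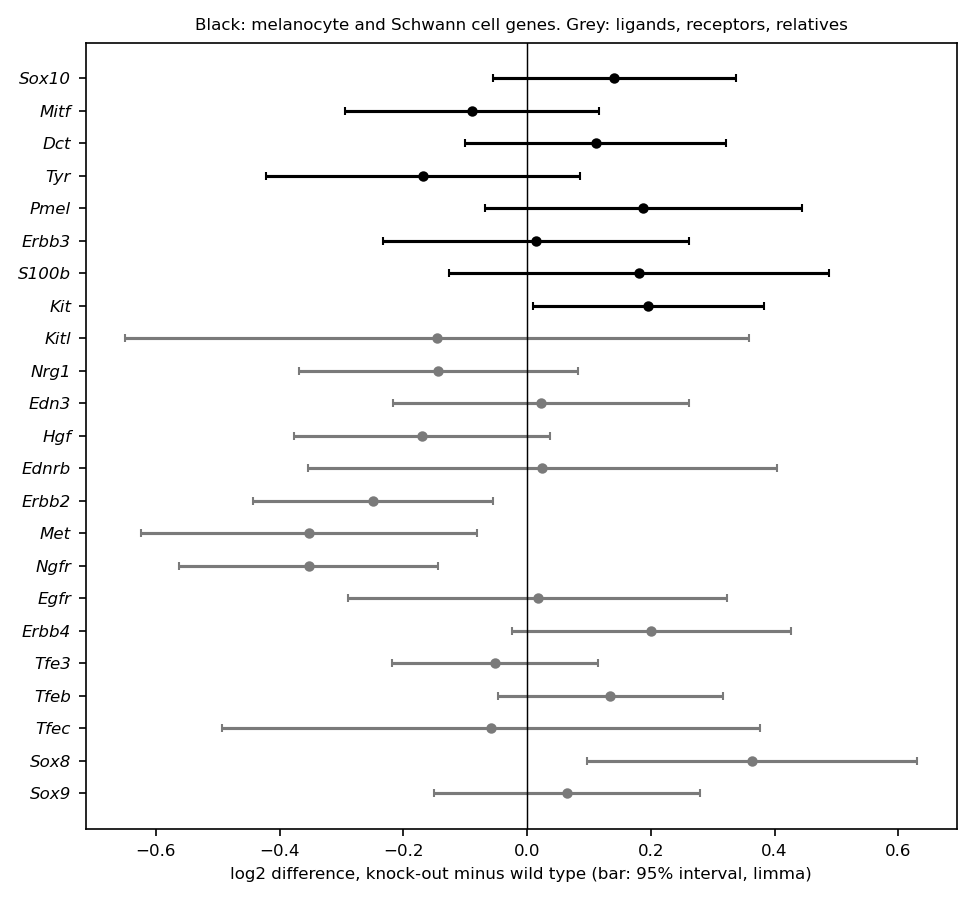
Log2 difference, knock-out minus wild type, with its 95% interval from limma for the 8 genes (black) and for their ligands, receptors and relatives (grey). Among the black points only the interval of Kit, 0.0093 to 0.38, leaves out 0, and no gene shown passed after adjustment over all genes.

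S100b, a calcium-binding protein of Schwann cells that cartilage cells and melanocytes make too, varied most among the 8 genes. It read 3.96, 4.12, 3.80, 3.52 and 4.45 on the knock-out arrays, and 3.74, 3.78, 3.63, 3.94 and 3.85 on the wild-type arrays. The highest and the lowest of the 10 values were both knock-out arrays, 5 and 4, and their gap amounted to 1.91-fold. The standard deviation was 0.35 in the knock-out, against 0.12 in the wild type, and over all 10 arrays it was larger than that of 87.8% of genes. The estimated difference was 0.18, its standard error 0.14 (limma adjusted p = 0.861; exact permutation p = 0.318). Leaving out knock-out array 5 gave 0.060, and leaving out knock-out array 4 gave 0.29.

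Of 10 cartilage genes, 2 were highest on the same array, Col2a1 and Comp, and 8 were highest on others. Col2a1, the main collagen of cartilage, read 5.36, 6.13, 4.99, 4.99 and 6.62 on the knock-out arrays, and 5.84, 5.56, 5.76, 5.36 and 5.51 on the wild-type arrays. Comp, a cartilage matrix protein, read 3.34, 3.71, 3.57, 3.51 and 4.87 on the knock-out arrays, and 3.56, 3.19, 3.66, 3.47 and 3.44 on the wild-type arrays. These 2 were picked for that after their values had been seen. The mean deviation of all 10 cartilage genes ran from -0.083 to 0.26 over the knock-out arrays, with 0.26 on array 5, and from -0.13 to 0.058 over the wild-type arrays. S100b was set against each of the 10 cartilage genes over the 10 arrays, likewise after the fact, and r was positive for 7 and negative for 3, the lowest being -0.325 with Matn1. No relation passed after adjustment over the 10. Pearson's r was 0.736 with Col2a1 (permutation p = 0.0167, adjusted over the 10 relations 0.167) and 0.730 with Comp (permutation p = 0.0471, adjusted 0.235). Spearman's rho was 0.370 with Col2a1 (permutation p = 0.296, adjusted 0.768) and 0.224 with Comp (permutation p = 0.538, adjusted 0.768). Without knock-out arrays 4 and 5, r was 0.173 and 0.0725. These are the 2 arrays farthest from the median of S100b. Leaving them out narrows its range, which by itself can lower r, so this does not decide whether the relations rest on them. With each genotype centred on its own mean, r was 0.784 with Col2a1 (permutation p = 0.0574) and 0.686 with Comp (permutation p = 0.169), against -0.629 with Chad (permutation p = 0.0933) and -0.509 with Col9a2 (permutation p = 0.306). The rank relation farthest from 0 was then a negative one, with Col9a2 (rho = -0.806, permutation p = 0.0165, adjusted 0.0990), followed by Col9a1 (rho = 0.745, permutation p = 0.0198, adjusted 0.0990). The part of cartilage cells in the S100b signal was not tested.

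**Figure D3:**
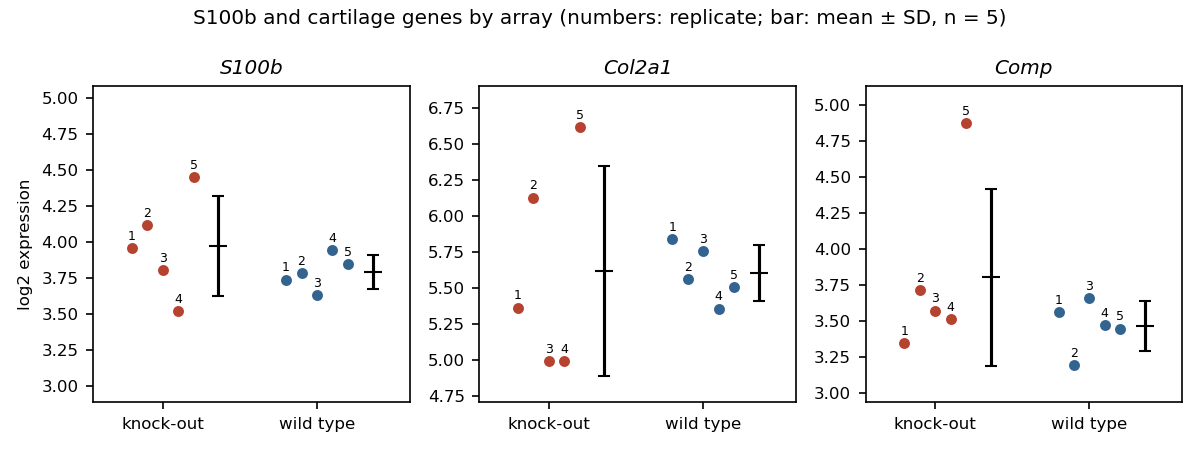
Log2 expression of S100b and of the cartilage genes Col2a1 and Comp on each array, knock-out left and wild type right. Points carry replicate numbers and bars are mean ± SD (n = 5). Knock-out array 5 is highest in each panel, at 4.45, 6.62 and 4.87, and the other 8 cartilage genes, not drawn, were highest on other arrays.

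No gene of the 8 passed the comparison of genotypes. Limma called 0 of 22180 genes at an adjusted p under 0.05, or 0% of those tested, and the 8 genes had adjusted p-values from 0.830 to 0.989. At an unadjusted p under 0.05 limma found 1 of the 8, Kit, against 1326 genes or 5.98% overall. Groups of arrays did not overlap for 0 of the 8, against 0.987% overall. Means were higher in knock-out cells for 6 of the 8 and lower for Mitf and Tyr, where 50.7% of all genes had a higher mean in the knock-out. A difference of at least 0.1 in size was found for 6 of the 8, against 39.4% of all genes. The count of higher means was 5 where Erbb3 changed sign. The median difference was 0.13, against 0.0020 over all genes, and no interval reached beyond 1.40-fold. These intervals do not show that the genes were alike in both genotypes, only how far they could differ given this spread.

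No pair of the 8 genes passed a test of shared variation over the cultures. Over 10 arrays the 28 pairs had Pearson's r from -0.498 to 0.492, 15 positive and 13 negative. The number of pairs with an unadjusted permutation p under 0.05 was 0, and the smallest values adjusted over the 28 were 0.641 for Pearson's r and 0.558 for Spearman's rho. Sox10 and Dct had the highest r, 0.492 (permutation p = 0.140; rho = 0.624, permutation p = 0.0602), which came to 0.279 without knock-out array 2 and wild-type array 3. Mitf and Dct had the lowest, -0.498 (permutation p = 0.145; rho = -0.624, permutation p = 0.0601), or -0.129 without knock-out array 3 and wild-type array 5. In both cases the 2 arrays left out were those farthest from the median of the first gene. This narrows its range and can by itself bring r nearer to 0. The melanin enzymes Tyr and Dct had r = -0.30 (permutation p = 0.406). With each genotype centred on its own mean, 0 pairs passed. Over 10 arrays these tests cannot tell a weak relation from none, so a weak correlation is no finding. Apart from Mitf, the signals were also low.

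**Figure D4:**
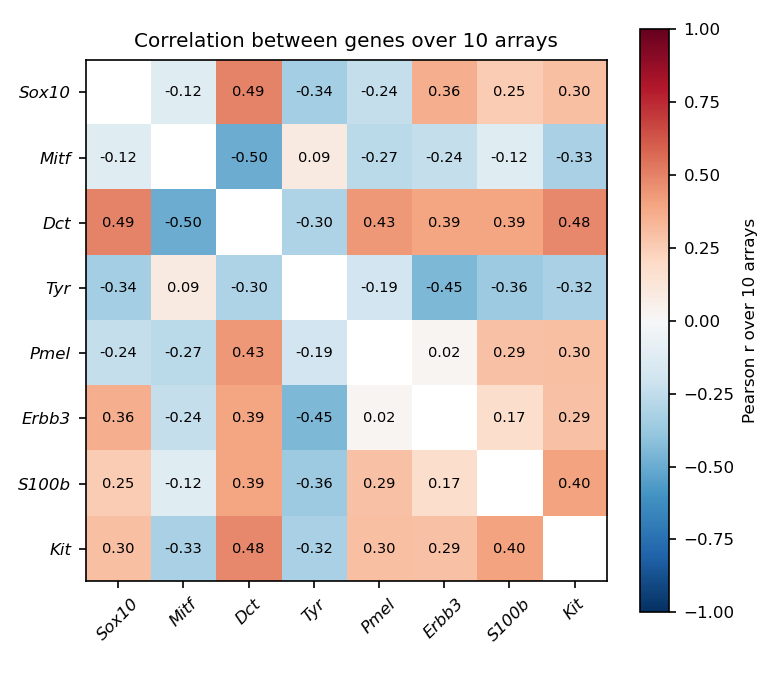
Pearson's r between each pair of the 8 genes over 10 arrays, red for positive and blue for negative values. Values run from -0.50 for Mitf with Dct to 0.49 for Sox10 with Dct, and no pair passed a permutation test.

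Genes whose profile over the 10 arrays was like that of each marker were searched among the more variable genes only. The 3 best of 3997 variable genes per marker had r from 0.826 to 0.928, and 0 of these 24 genes stood in any of the marker lists. Candidates lay above the 75th percentile of SD over the 10 arrays, which left out Sox10, Mitf, Dct, Tyr, Erbb3 and Kit themselves. How many listed genes were candidates was not counted, so 0 of 24 does not tell whether the markers vary apart from their lineages. Sox10 was followed by the chemokine gene Ccl4 (r = 0.904), Cntnap3 and Cd300c. Mitf was followed by the peroxisome gene Pex2 (r = 0.883), Spice1 and Dusp27, and Dct by Apoo (r = 0.876), Ezhip and Gabrr2. Tyr was followed by the podoplanin gene Pdpn (r = 0.893), Kcne1l and the tight junction gene Cldn1. Pmel was followed by the hair keratin gene Krt33a (r = 0.928), the heat shock gene Hspa1b (r = 0.920) and Dcaf12l1. Erbb3 was followed by Camk2n1 (r = 0.925), the hormone gene Fgf21 and Adm2. S100b was followed by the protocadherin gene Pcdhb3 (r = 0.898), Rhox8 and Atp5c1-ps, and Kit by the potassium channel gene Kcnv2 (r = 0.877), Folr1 and Tex19.2. These are the highest of many correlations over 10 points and carry no test.

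Of the further genes of both lineages, 0 passed the comparison of genotypes in limma. Of 15 measured pigment cell genes, 6 had a higher and 9 a lower mean in the knock-out, their median difference being -0.018 and 0 passing in limma. Tyrp1, the third enzyme of the tyrosinase family, was at 2.80 to 3.45 in the knock-out, against 2.90 to 3.53 in the wild type, a difference of -0.14 (limma adjusted p = 0.901). Trpm1, a cation channel of melanocytes, differed by 0.23 (limma adjusted p = 0.821), Slc45a2, a melanosome transporter, by 0.14 (0.869) and Mc1r, the receptor of melanocyte-stimulating hormone, by -0.084 (0.955). Tyrp1, Trpm1, Slc45a2 and Mc1r had low signals, with means below the 95th percentile of the olfactory and vomeronasal receptor genes, 3.94. Gpnmb, a glycoprotein that both melanocytes and macrophages make, had one of the widest spreads of this list, from 6.04 to 7.02 over the knock-out arrays and from 6.25 to 7.45 over the wild-type arrays.

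Of 21 measured Schwann cell genes, 11 had a higher and 10 a lower mean in the knock-out, their median difference being 0.049 and 0 passing in limma. Groups did not overlap for 2 of them, Ngfr and Erbb2, given above, where 0.987% of all genes showed no overlap. Both lie on chromosome 11, as Zbtb4 does. Pmp22, Cnp and Gfap of this list lie there too, with differences of 0.084, 0.049 and 0.14 and overlapping groups. The part of a shared chromosome was not tested. Gap43, a growth protein of nerve and precursor cells, was at 6.92 on knock-out array 2 and at 7.53 to 8.03 on the other knock-out arrays, against 7.74 to 8.13 in wild-type cells, a difference of -0.27 (limma adjusted p = 0.848). Egr2, which drives myelination in Schwann cells and is also an early serum response gene, was at 7.22 on knock-out array 3 and differed by 0.22 (limma adjusted p = 0.874). The list also holds Mog, a myelin gene of oligodendrocytes and no Schwann cell marker. Mog differed by 0.27, Gfra3 by 0.15 and Fabp7 by -0.076, with limma adjusted p-values of 0.831, 0.842 and 0.948.

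Of 16 measured transcription factors of the neural crest, 6 had a higher and 10 a lower mean, with a median difference of -0.075 and 0 passing in limma. Tfap2b, an AP-2 factor, was the 1 of them whose groups did not overlap (0.987% of all genes), at 2.77 ± 0.11 in the knock-out, against 3.30 ± 0.31 in the wild type (SD over 5 arrays each, limma adjusted p = 0.804). Its signal was low, with both means below the 95th percentile of the olfactory and vomeronasal receptor genes, 3.94. Tfap2a differed by -0.28, Msx2 by 0.16, Dlx5 by -0.13, Pax3 by -0.23 and Foxd3 by 0.17, with limma adjusted p-values from 0.835 to 0.942.

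**Figure D5:**
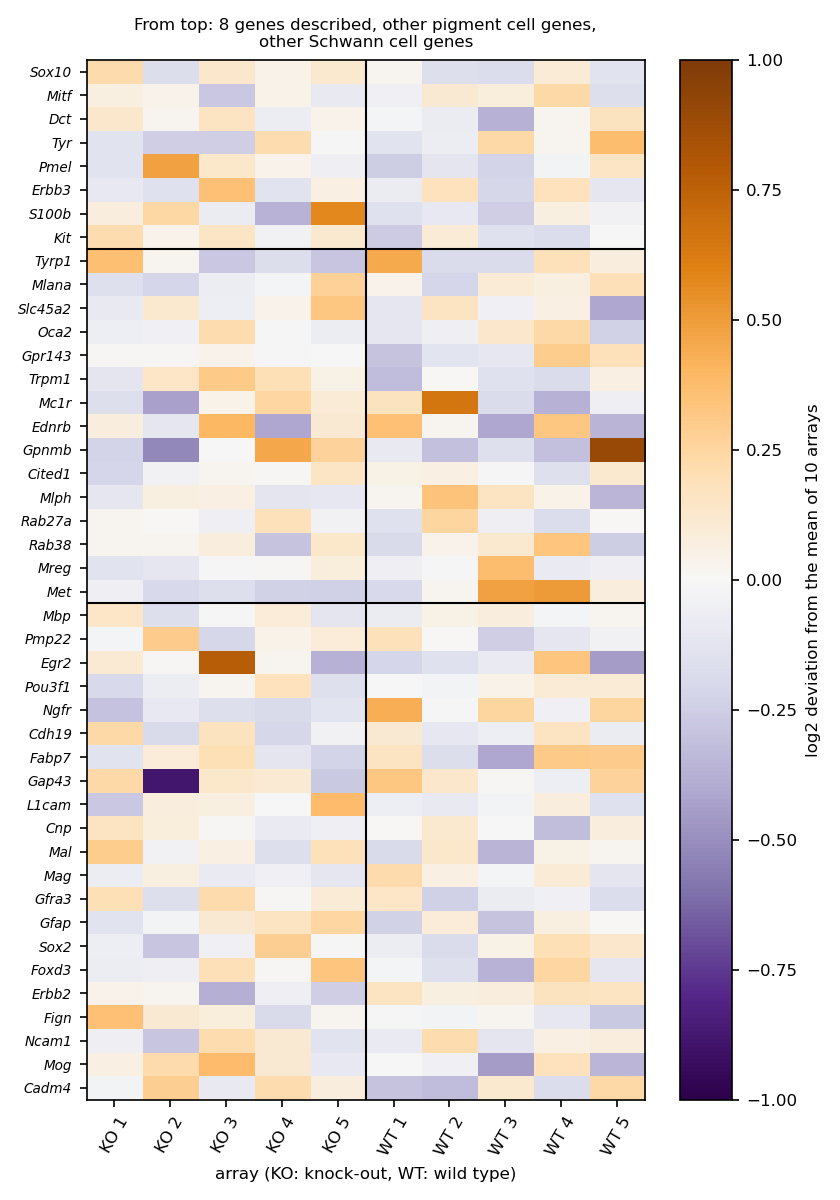
Log2 deviation from the mean of the 10 arrays for the 8 genes (top block), 15 other pigment cell genes (middle) and 21 other Schwann cell genes (bottom), with knock-out arrays left of wild-type arrays. Orange is above and purple below the gene's mean. No array is orange or purple through a whole block, and the deepest single cells belong to Gpnmb on wild-type array 5 and Gap43 on knock-out array 2.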

How the data were processed

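Total RNA of 10 fibroblast samples carried a biotin label and was read on Affymetrix arrays with 1 colour, per the labels. The authors deposited values whose range is that of log2 signals, with array medians of 3.89 to 3.93 over 41345 probe sets. Summarisation and normalization steps were not given in the sources used here, and signal over background is unknown. Probe sets were named from the platform annotation. Those with 1 symbol, 23521, were kept, and the one with the highest mean stood for each of 22180 genes. Differences, knock-out minus wild type, were fitted over all genes with limma 3.58.1 in R 4.3.3 (lmFit, eBayes, no covariate, Benjamini-Hochberg over all genes, threshold 0.05). For single genes all 252 splits of the arrays were permuted (exact, two-sided). Correlations used 100000 permutations, adjusted over the relations of each family. Promoters came from RefSeq. The scripts were tested on simulated data.

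The 8 genes and 13 further marker lists were chosen with earlier results of these data known. Named were the 8 genes, the 3 variable genes most correlated with each (proper symbols, SD over the arrays in the top 25%), all ligands, receptors and relatives, and, of other lists, up to 4 genes with the largest SD and up to 4 with the smallest limma p; not all of these are printed. Vim and the olfactory and vomeronasal receptors were chosen after their values were seen. No arrays held identical values, and any pair correlated with r from 0.989 to 0.994 over genes. Y-linked genes averaged 5.89 to 6.42 on arrays 1 and 3 of each genotype and 2.49 to 2.78 on the others. Xist, the transcript of the inactive X chromosome, read 2.99 to 4.50 on arrays 1 and 3 and 10.1 to 10.3 on the others. This is the pattern of male cells on arrays 1 and 3 and of female cells on the others, in both genotypes. The number of arrays limits the precision.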

Additional observations from a re-analysis of the deposited data

Results flagged for a closer look

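The samples of each genotype were searched for a single array far from the other 4. The search covered 186 groups of 5 arrays, from Zbtb4 and the genes named by rule from the 8 genes and the marker lists. The genes most correlated with the 8, and Vim, were not searched. Such a search flags about 5% of groups by chance, and 3 were found, none of them among the 8 marker genes. Comp stood at 4.87 on knock-out array 5, where the other 4 knock-out arrays read 3.34 to 3.71. Gpnmb stood at 7.45 on wild-type array 5, against 6.25 to 6.47 on the other wild-type arrays. The desmosome gene Dsp stood at 3.35 on wild-type array 4, against 3.69 to 3.77 on the other wild-type arrays.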

How the results depend on the processing

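The 8 differences were recomputed with quantile normalization, centring on each array's median, the dimmest 40% of genes left out, all probe sets of a gene averaged, eBayes with trend and robust, weights per array, a block for the replicate number, a covariate for Y-linked signal, and each array left out in turn. Of 139 values, 133 kept their direction without passing, 6 changed sign and 0 passed, with a smallest adjusted p of 0.650. All 6 were of Erbb3, with -0.022 under quantile normalization, -0.0035 with centring and -0.074 to 0.061 with single arrays left out. Averaged probe sets, the eBayes option, the replicate block and the filter cannot move a difference of these genes. Each gene has 1 probe set, and the groups are equal in size. In those settings the directions were fixed in advance and are no check of stability. The filter on dim genes kept 3 of the 8 and gave no value for Dct, Tyr, Pmel, Erbb3 and Kit. The number of genes called over all genes was 0 throughout, except with single arrays left out, where it ran from 0 to 1 (without wild-type array 5). The number of called pairs of genes stayed 0 in the 3 other settings. The arrays share numbers, and the sex pattern of Y-linked genes and Xist matched number by number. Yet same-numbered arrays correlated in their deviations with r from -0.046 to 0.17, so the numbers are not taken as pairs. Knock-out arrays 1 and 5 correlated best with their own number and the other 3 did not. With the replicate block, 0 genes were called and Kit differed by 0.20 with an adjusted p of 0.850.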

Other observations

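Markers of other cells that dorsal skin can hold were read on the same arrays, and 0 of the members of each list passed in limma. Of 14 macrophage and leukocyte genes, 12 had a higher and 2 a lower mean in knock-out cells, where 50.7% of all genes were higher. The lysozyme gene Lyz2 was between 5.62 (array 5) and 8.41 (array 3) in the knock-out, against 6.34 to 7.44 in the wild type. For the mean deviation of the 14, these 2 knock-out cultures were likewise the extremes, at -0.54 and 0.83. Wild-type cells ranged from -0.29 to 0.16. Genes that vary together are not separate readings, so the count of 12 does not weigh as 12 results. Of 10 endothelial genes, 8 had a higher mean and 2 a lower one, where 50.7% of all genes were higher. The groups did not overlap for 2 of the 10, Cdh5 and Esam, against 0.987% of all genes. Cdh5 and Esam had low signals, with means below the 95th percentile of the olfactory and vomeronasal receptor genes, 3.94. Of 13 neuronal genes, 7 were higher and 6 lower in mean, and the neuronal hydrolase gene Uchl1 averaged 8.26 ± 0.25 in the knock-out, against 7.92 ± 0.22 in the wild type (SD over 5 arrays each, limma adjusted p = 0.821). Of 11 keratinocyte genes, 7 were higher and 4 lower in mean, and Krt18, a keratin of simple epithelia, was at 8.97 on knock-out array 1 and at 7.30 to 8.34 on the other knock-out arrays, against 7.34 to 8.09 in wild-type cells. Of 10 skeletal muscle genes, 4 had a higher and 6 a lower mean, with the intermediate filament gene Des at 6.61 to 7.53 in the knock-out, against 5.96 to 7.29 in the wild type. Of 10 cartilage genes, 6 were higher and 4 lower in mean, and Chad differed by 0.30 (limma adjusted p = 0.821). Of 12 fibroblast genes, 4 were higher and 8 lower in mean, and Twist2, a dermal transcription factor, averaged 5.88 ± 0.19 in the knock-out, against 6.22 ± 0.26 in the wild type (SD over 5 arrays each, limma adjusted p = 0.821).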
